A study of Mus musculus with 60 samples.

Results

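Liver sinusoidal endothelial genes, 10 in number, were followed through Kupffer cell preparations of 15 mice: Stab2, Lyve1, Clec4g, Kdr, Eng, Oit3, Dnase1l3, Gpr182, Ptprb and Cdh5. They were taken by symbol from a table of 24411 gene rows, and all 10 were present. The mice fell into 3 groups of 5, namely Trem1-deficient mice given carbon tetrachloride (CCl4), wild-type mice given CCl4, and wild-type mice given corn oil. All were C57BL/6J animals, aged 8 weeks and male by their labels. CCl4, a solvent that injures hepatocytes, was given once at 2 µl/g body weight in a 1:4 dilution in corn oil, and cells were isolated at 12 h. Corn oil was thus shared by all groups, and no Trem1-deficient mouse received oil alone. Trem1 is the gene of a receptor that activates myeloid cells. The allele is not described in the labels.

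Sinusoidal endothelial cells line the capillaries of the liver. They are perforated by open pores, rest on almost no basement membrane and clear waste molecules from blood by receptor-mediated uptake. They lie beside Kupffer cells, the resident macrophages, and beside stellate cells, and they send growth factors such as Wnt and R-spondin proteins to hepatocytes. The preparations studied here were enriched for macrophages. Cells that bound CD11b beads were removed and cells that bound F4/80 beads were kept, and F4/80 is not a marker of endothelium. Transcripts of endothelial genes in such a preparation can come from endothelial cells carried along or from other cells, and in bulk RNA fewer cells of a type and less RNA per cell cannot be told apart.

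Promoter sequence was at hand for 4 of the 10 genes (RefSeq, GRCm38.p6). The bases before the start of 3 of them are shown because Clec4g and Eng gave the smallest p-values of the 10 for Trem1-deficient against oil wild-type mice, and Kdr encodes the main VEGF receptor of the group. Bases inside an annotated transcript are left out, so that 250, 250 and 247 bases remain. Capitals mark CCGGAA or AGGAAG on either strand, the core letters read by ETS factors, a family that acts in endothelial cells.
Clec4g, chr8:3720652-3720901, minus strand: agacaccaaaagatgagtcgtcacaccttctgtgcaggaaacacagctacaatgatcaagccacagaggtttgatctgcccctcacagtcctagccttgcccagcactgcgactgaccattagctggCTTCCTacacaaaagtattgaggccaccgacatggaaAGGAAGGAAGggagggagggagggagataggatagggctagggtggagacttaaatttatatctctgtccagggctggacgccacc
Eng, chr2:32646345-32646594, plus strand: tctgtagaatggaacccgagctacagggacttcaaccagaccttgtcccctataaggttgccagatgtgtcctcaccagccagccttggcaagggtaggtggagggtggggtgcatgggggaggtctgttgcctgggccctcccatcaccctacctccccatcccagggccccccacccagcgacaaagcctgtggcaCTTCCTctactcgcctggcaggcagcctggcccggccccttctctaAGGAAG
Kdr, chr5:75978459-75978705, minus strand: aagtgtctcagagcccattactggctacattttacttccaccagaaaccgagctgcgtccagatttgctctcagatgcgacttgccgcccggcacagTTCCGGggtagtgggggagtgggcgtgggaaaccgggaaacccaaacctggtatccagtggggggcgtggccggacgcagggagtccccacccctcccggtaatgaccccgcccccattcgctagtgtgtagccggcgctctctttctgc

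Counted from the RefSeq start of the gene, AGGAAG lay in the Clec4g promoter at -123 on the other strand and at -86 and -82 as written, where the last pair overlap. In Eng it lay at -52 on the other strand and at -6 as written. Stab2, the fourth gene, held it at -40 on the other strand, inside a longer annotated transcript. The Kdr window held CCGGAA at -153 on the other strand, and the 3 bases of that window next to the RefSeq start are not printed above. AGGAAG was present in 3 of the 4 windows of 250 bases and in 29.5% of 32851 promoter windows of that length, and CCGGAA in 1 of 4 and in 12.0%. The GATA letters AGATAA and TGATAA and the SOX letters AACAAT, searched on both strands, were in none of the 4 windows and in 9.99%, 7.94% and 9.42% of all. A match of letters is a description and no binding was measured.

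All 10 are protein-coding genes on GRCm38 in GENCODE M21. The receptors for uptake are Stab2 on chr10:86841198-87008025 (minus strand), Lyve1 on chr7:110850607-110863239 (minus strand) and Clec4g on chr8:3707064-3720651 (minus strand). The genes of vascular signalling are Kdr on chr5:75932827-75978458 (minus strand), Eng on chr2:32646595-32682669 (plus strand), Ptprb on chr10:116275523-116389535 (plus strand) and Gpr182 on chr10:127747276-127751732 (minus strand). The junction gene is Cdh5 on chr8:104101625-104144511 (plus strand), and the genes of secreted proteins are Dnase1l3 on chr14:7964533-7994573 (minus strand) and Oit3 on chr10:59422958-59441778 (minus strand). Stab2 overlaps the antisense gene Gm16268 at its 3' end, which is not a row of the table used here.

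Gene counts came to 1250547 to 2593004 per library in Trem1-deficient, 812320 to 1912946 in CCl4 wild-type and 892498 to 1922569 in oil wild-type mice. They made up 12.6 to 28.8% of all tallied reads, lowest in CCl4 wild-type mouse 5 and highest in Trem1-deficient mouse 2. Levels are given as CPM, counts per 1e6 counts in tested genes after TMM scaling. On this scale the limit that a count of 0 allows, 3 counts, lay at 1.002 to 4.15 CPM. The reads are 3' tags, about 1 per transcript whatever its length, so levels were set side by side between genes without a correction for length. How fully the 3' end of each gene was counted is not known, as the annotation and strand setting were not given. Trem1 averaged 4.29 ± 4.09 CPM in Trem1-deficient, 348 ± 167 CPM in CCl4 wild-type and 54.0 ± 31.4 CPM in oil wild-type mice (SD, n = 5 each). The Kupffer cell gene Clec4f averaged 1259, 268 and 2261 CPM in the same order. Adgre1, which encodes the F4/80 antigen used for the sort, averaged 209, 75.95 and 324 CPM. Index numbers in the labels fall into 2 series. The first holds every oil mouse with mice 1 and 2 of the Trem1-deficient group, the second every CCl4 wild-type mouse with Trem1-deficient mice 3 to 5. Xist ran from 72 to 1552 counts in the 7 libraries of the first series, against 1 to 31 in the 8 of the second. Y-linked transcripts (Uty, Kdm5d, Eif2s3y and Ddx3y) summed to 0 to 7 counts in the first series and 134 to 425 in the second. The 7 libraries of the first series thus go against the label male. Between wild-type mice after CCl4 and after oil, treatment therefore cannot be told apart from index series and sex-linked transcripts.

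All 10 genes had at least 1 count in all 15 libraries and all 10 passed the filter on low counts. Lyve1 and Cdh5 were at 1 count each in CCl4 wild-type mouse 5, and Oit3 at 3 counts in Trem1-deficient mouse 4. Group means of single genes ran from 65.1 to 622 CPM in Trem1-deficient, from 64.7 to 456 CPM in CCl4 wild-type and from 25.9 to 398 CPM in oil wild-type mice. Ptprb had the highest mean in each group. Oit3 had the lowest in Trem1-deficient and in oil mice, and Cdh5 in CCl4 wild-type mice. None of the 10 passed the test across all genes in any comparison, and for each of them the ranges of every pair of groups overlapped.

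**Figure D1:**
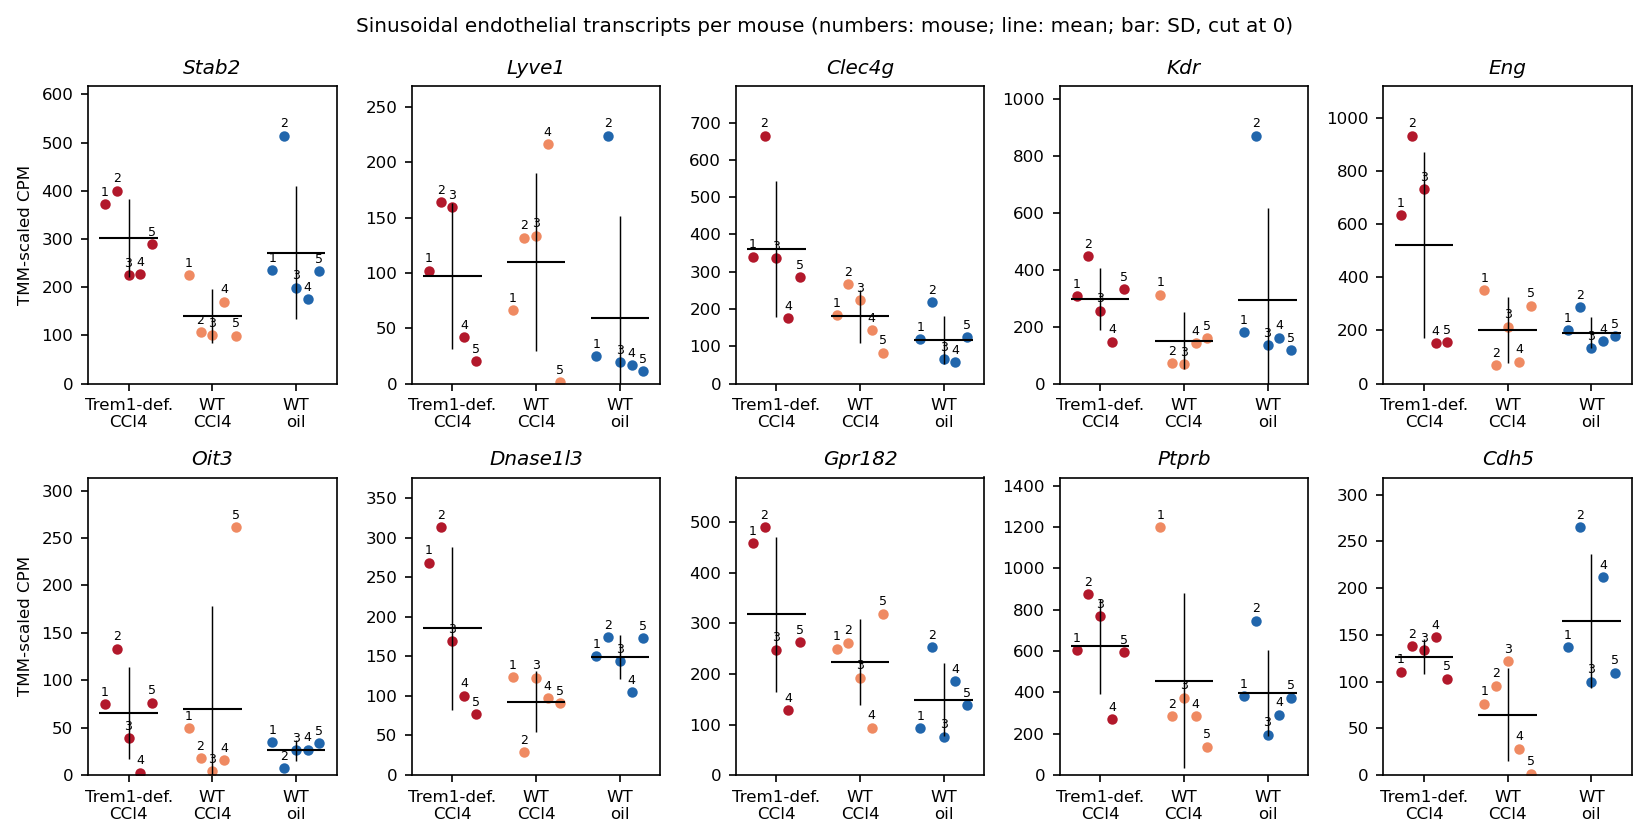
TMM-scaled CPM (vertical axes) of the 10 genes in Trem1-deficient CCl4, CCl4 wild-type and oil wild-type mice, where points are mice and bars are the group mean with its SD, cut at 0. Oil mouse 2 stands above the other oil mice for most genes, for example at 870.1 CPM of Kdr against 118 to 181 CPM.

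The receptors for uptake and carbohydrate binding are Stab2, Lyve1 and Clec4g. Stab2 encodes the main scavenger receptor for hyaluronan of sinusoidal endothelium. It stood at 372, 400.0, 225, 227 and 289 CPM in Trem1-deficient mice 1 to 5, at 225, 107, 100.2, 170.0 and 99.6 CPM in CCl4 wild-type mice, and at 236, 515, 199, 175 and 234 CPM in oil wild-type mice. The Trem1-deficient and CCl4 wild-type ranges touched only at 225 CPM, and 4 of 5 CCl4 wild-type mice lay below every oil mouse. Trem1-deficient mice differed from CCl4 wild-type mice by a log2 fold change of 1.11 ± 0.36 (edgeR adjusted p = 0.104), with 5 of 5 mice above the mean of the other group. It was -0.95 ± 0.36 for CCl4 against oil in wild type (edgeR adjusted p = 0.130), with 5 of 5 mice below the oil mean. Neither passed the threshold. Without CCl4 wild-type mouse 1, the highest of its group, they did, at 1.35 (edgeR adjusted p = 0.0317) and -1.19 (edgeR adjusted p = 0.0443). Taking out the highest mouse of the lower group widens both differences by construction. In those fits 508 and 759 of 9298 genes passed, against 185 and 462 of 9001 with all mice. When each mouse was left out in turn, the 2 log2 fold changes of Stab2 ran from 0.99 to 1.35 and from -1.19 to -0.58. Against oil, Trem1-deficient mice differed by 0.16 ± 0.36, with a 95% interval of -0.57 to 0.89.

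Clec4g encodes LSECtin, a C-type lectin of sinusoidal endothelium. Its levels were 340.1, 665, 336, 175 and 285 CPM in Trem1-deficient, 184, 267, 223, 143 and 83.0 CPM in CCl4 wild-type and 118, 218, 65.7, 56.6 and 124 CPM in oil wild-type mice. In Trem1-deficient mice 4 of 5 values lay above every value of either other group, and mouse 4 lay among them. Against oil wild-type mice, Trem1-deficient mice showed a log2 fold change of 1.63 ± 0.41 (edgeR adjusted p = 0.116), with a 95% interval of 0.79 to 2.48. DESeq2 placed this difference past the threshold (adjusted p = 0.0410), as it did 74 of 9001 genes. The edgeR fit did too when oil mouse 2 was left out (1.98, adjusted p = 0.0356). That mouse is the highest of its group, so leaving it out widens the difference by construction. Against CCl4 wild-type mice it was 1.00 ± 0.41 (edgeR adjusted p = 0.220).

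Lyve1 encodes a hyaluronan receptor of lymphatic and sinusoidal endothelium, also found on some macrophages. It was at 102, 164, 159.6, 41.6 and 19.9 CPM in Trem1-deficient, at 66.5, 132, 134, 216 and 1.38 CPM in CCl4 wild-type and at 24.4, 224, 19.3, 16.3 and 10.99 CPM in oil wild-type mice. The 1.38 CPM of CCl4 wild-type mouse 5 is a single count, and oil mouse 2 stood apart from 4 low oil mice. The log2 fold change was 0.92 ± 0.91 for CCl4 against oil in wild type (edgeR adjusted p = 0.661), with a 95% interval of -0.99 to 2.82. It was 2.63 without oil mouse 2 (edgeR adjusted p = 0.0524) and 1.196 without CCl4 wild-type mouse 5 (edgeR adjusted p = 0.482). Without both, a choice made after their values were seen, it was 2.93 (edgeR adjusted p = 0.00207).

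Kdr, Eng, Ptprb and Gpr182 encode membrane proteins of vascular signalling. Eng encodes endoglin, a co-receptor for ligands of the TGF-beta and BMP families. It stood at 635, 935, 732, 153 and 157 CPM in Trem1-deficient, 352, 69.5, 215, 81.9 and 293 CPM in CCl4 wild-type and 201, 288, 132, 159 and 178 CPM in oil wild-type mice. Trem1-deficient mice 1 to 3 lay above every wild-type mouse, while mice 4 and 5 lay within the wild-type ranges. For Trem1-deficient mice the log2 fold change of Eng was 1.37 ± 0.49 against CCl4 wild type (edgeR adjusted p = 0.153) and 1.45 ± 0.49 against oil wild type (edgeR adjusted p = 0.535). The 3' end of Eng overlaps that of Fpgs on the other strand, which averaged 1.57, 0.532 and 0.996 CPM in Trem1-deficient, CCl4 wild-type and oil wild-type mice.

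Kdr levels were 306, 447, 256, 147 and 332 CPM in Trem1-deficient, 312, 70.5, 66.8, 141 and 159 CPM in CCl4 wild-type and 181, 870.1, 134, 161 and 118 CPM in oil wild-type mice. In both wild-type groups 1 mouse lay above the rest of its group, mouse 1 after CCl4 and mouse 2 after oil. Kdr had a log2 fold change of 0.99 ± 0.51 for Trem1-deficient against CCl4 wild type (edgeR adjusted p = 0.368). For CCl4 against oil in wild type it was -0.96 ± 0.52 (edgeR adjusted p = 0.329), and 0.02 when oil mouse 2 was left out (edgeR adjusted p = 0.989).

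Ptprb encodes VE-PTP, a phosphatase that acts on the Tek receptor and on VE-cadherin. It averaged 622 ± 229.7 CPM in Trem1-deficient, 456 ± 424 CPM in CCl4 wild-type and 398 ± 209 CPM in oil wild-type mice (SD, n = 5 each), with CCl4 wild-type mouse 1 at 1200.0 CPM and the other 4 at 137 to 374 CPM. Its log2 fold change for CCl4 against oil in wild type was 0.20 ± 0.46, and -0.56 without that mouse. Neither passed the test. Gpr182 encodes an atypical chemokine receptor of endothelial cells, and averaged 318 ± 153, 224 ± 85.4 and 149 ± 72.0 CPM in Trem1-deficient, CCl4 wild-type and oil wild-type mice. For Trem1-deficient against oil mice its log2 fold change was 1.10 ± 0.40 (edgeR adjusted p = 0.668). The 3' end of Gpr182 overlaps Zbtb39 on the other strand, which averaged 14.5, 2.61 and 6.42 CPM in the same order.

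Cdh5 encodes VE-cadherin, the adhesion protein of endothelial junctions. It was at 111, 138, 134, 148 and 103 CPM in Trem1-deficient, at 76.5, 95.6, 122, 28.05 and 1.38 CPM in CCl4 wild-type and at 137, 265, 100.015, 212 and 109 CPM in oil wild-type mice. Trem1-deficient mice were the most even, with a coefficient of variation of 15.0%, against 76.3% in CCl4 wild-type and 43.3% in oil wild-type mice. Cdh5 had a log2 fold change of -1.34 ± 0.57 for CCl4 against oil in wild type (edgeR adjusted p = 0.183), with 5 of 5 mice below the oil mean. The 1.38 CPM of CCl4 wild-type mouse 5 is again 1 count, and Lyve1 is also at 1 count in that library.

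The secreted proteins are those of Dnase1l3, an enzyme that digests DNA in blood, and of Oit3, which carries a zona pellucida domain. Dnase1l3 averaged 186 ± 103 CPM in Trem1-deficient, 92.9 ± 38.5 CPM in CCl4 wild-type and 149 ± 28.4 CPM in oil wild-type mice (SD, n = 5 each). Its log2 fold change for Trem1-deficient against CCl4 wild type was 1.00 ± 0.44 (edgeR adjusted p = 0.265). Oit3 was the most uneven of the 10 after CCl4 in wild type, at 49.2, 18.1, 3.82, 15.5 and 261 CPM, where mouse 5 held 189 of the 312 counts of the group. In Trem1-deficient mice it stood at 74.5, 133, 39.1, 2.45 and 76.2 CPM, and in oil mice at 34.8, 7.51, 26.4, 26.9 and 33.9 CPM. The log2 fold change for Trem1-deficient against CCl4 wild type was -0.08 ± 0.85, and 1.60 when mouse 5 of the CCl4 wild-type group was left out. Neither passed the test.

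Counted over the 10 genes, 0 changed between Trem1-deficient and wild-type mice after CCl4, where 2.06% of the 9001 genes tested did. The log2 fold change was positive for 8 and negative for 2, with a median of 0.98, against -0.03 over all genes tested. An unadjusted edgeR p under 0.05 was reached by 4 of the 10 (Stab2, Eng, Clec4g and Dnase1l3), all higher in Trem1-deficient mice, and by 6.79% of all genes in that direction. DESeq2 called 0 of the 10, and 616 of the 9001 genes. With library totals in place of TMM scaling, Stab2 (1.42, edgeR adjusted p = 0.0215) and Eng (1.74, edgeR adjusted p = 0.0414) passed. That scaling moved the median over all genes by 0.29, and the genes called higher and lower came to 211 and 95, against 70 and 115 with TMM. Between Trem1-deficient mice after CCl4 and wild-type mice after oil, which differ in genotype and treatment, edgeR again called 0, where 0.233% of all genes changed. Here 9 were positive and 1 negative, the median was 0.69 against 0.02 over all genes, and 3 (Clec4g, Eng and Gpr182) had an unadjusted p under 0.05, all higher, as had 2.61% of all genes. DESeq2 called Clec4g alone of the 10, and 74 of the 9001 genes.

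Between CCl4 and oil in wild type, 0 of the 10 changed, where 5.13% of all genes did. The log2 fold change was positive for 6 and negative for 4, with a median of 0.14 against 0.06 over all genes. An unadjusted edgeR p under 0.05 was reached by 2 (Stab2 and Cdh5), both lower after CCl4, and by 8.44% of all genes in that direction. DESeq2 called 0 of the 10 here, and 1010 of 9001 genes. Library totals moved the median over all genes by -0.18 here, and gave 218 genes higher and 314 lower, against 274 and 188 with TMM. Any 2 of these 3 comparisons share a group of mice, so their values are not independent. No group of the 10 lay apart from another without overlap, which 5.54%, 2.9% and 6.58% of all genes did for Trem1-deficient against CCl4 wild type, Trem1-deficient against oil wild type and CCl4 against oil wild type.

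**Figure D2:**
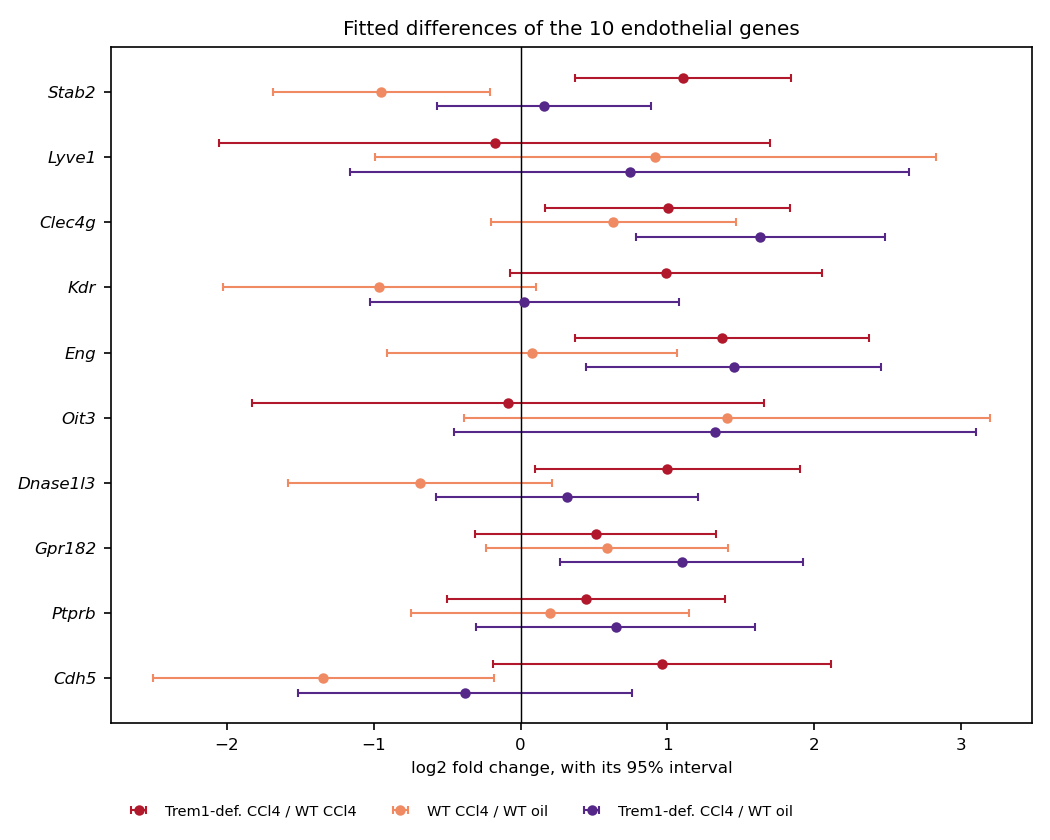
Log2 fold change (horizontal axis) with its 95% interval from the edgeR fit for each of the 10 genes in the 3 comparisons. The values for Trem1-deficient against CCl4 wild type lie between -0.18 for Lyve1 and 1.37 for Eng, and no gene passed the adjusted threshold.

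The Trem1-deficient group spans both index series. Mice 1 and 2, of the series with Xist, had a higher mean than mice 3 to 5 for 9 of the 10 genes, the exception being Cdh5, and both lay above all 3 for Stab2, Clec4g, Dnase1l3 and Gpr182. Mean Clec4g was 503 CPM in mice 1 and 2 and 265 CPM in mice 3 to 5, and mean Gpr182 was 475 and 213 CPM. Within the second series, 3 Trem1-deficient against 5 CCl4 wild-type mice, the log2 fold change was 0.82 for Stab2 and 0.57 for Clec4g, with a median of 0.45 over the 10 genes, and 0 passed the threshold, where 0.653% of the genes tested did. Gpr182 was at -0.05 there, against 0.51 over all mice. Within the first series, 2 Trem1-deficient against 5 oil mice, the median was 1.10 and 1 of the 10, Eng, passed the threshold at 2.06 (edgeR adjusted p = 0.00652), where 0.225% of the genes tested did.

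Summed over the 10 genes, endothelial transcripts came to 2898 ± 1193 CPM in Trem1-deficient, 1689 ± 652 CPM in CCl4 wild-type and 1819 ± 991 CPM in oil wild-type mice (SD, n = 5 each). The ranges were 1393 to 4562, 1271 to 2839 and 1092 to 3562 CPM and overlapped throughout. Over the same mice, 19 Kupffer cell markers summed to 56908 to 74838 CPM in Trem1-deficient, 7932 to 30054 CPM in CCl4 wild-type and 40893 to 81801 CPM in oil wild-type mice. The sum of the 10 endothelial genes as a percentage of that Kupffer sum was 1.86 to 6.83% in Trem1-deficient, 9.45 to 17.7% in CCl4 wild-type and 1.37 to 8.71% in oil wild-type mice. Every CCl4 wild-type mouse thus lay above every mouse of the other groups in this ratio, while the endothelial sums themselves overlapped. Oil mouse 2 was at 8.71% and the other 4 oil mice at 1.37 to 2.25%.

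Sums for other cell types are given for the same mice. The 20 hepatocyte markers averaged 10882 CPM in Trem1-deficient, 41263 CPM in CCl4 wild-type and 8023 CPM in oil wild-type mice. Their ranges were 2261 to 22482, 18703 to 60916 and 3531 to 17904 CPM, and Ass1 was at 0 in every library. The 10 monocyte markers averaged 1085, 4159 and 790 CPM in the same order, within ranges of 735 to 1560, 2702 to 5219 and 574 to 1257 CPM. Neutrophil markers, 11 in the table, averaged 1627 CPM in Trem1-deficient, 6201 CPM in CCl4 wild-type and 742 CPM in oil wild-type mice, within ranges of 398 to 3223, 1339 to 12251 and 214 to 1777 CPM that overlapped. The 7 cholangiocyte markers averaged 30.3 CPM in Trem1-deficient, 136 CPM in CCl4 wild-type and 7.94 CPM in oil wild-type mice without overlap, within 21.4 to 40.8, 47.7 to 338 and 1.92 to 15.0 CPM, and Krt7 was at 0 in every library. The 14 markers of stellate cells and fibroblasts summed to 113 to 336, 85.6 to 309 and 96.4 to 599.7 CPM, which overlapped, with Lum at 0 in all Trem1-deficient and all oil mice. The part of these cells in the endothelial values was not tested.

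**Figure D3:**
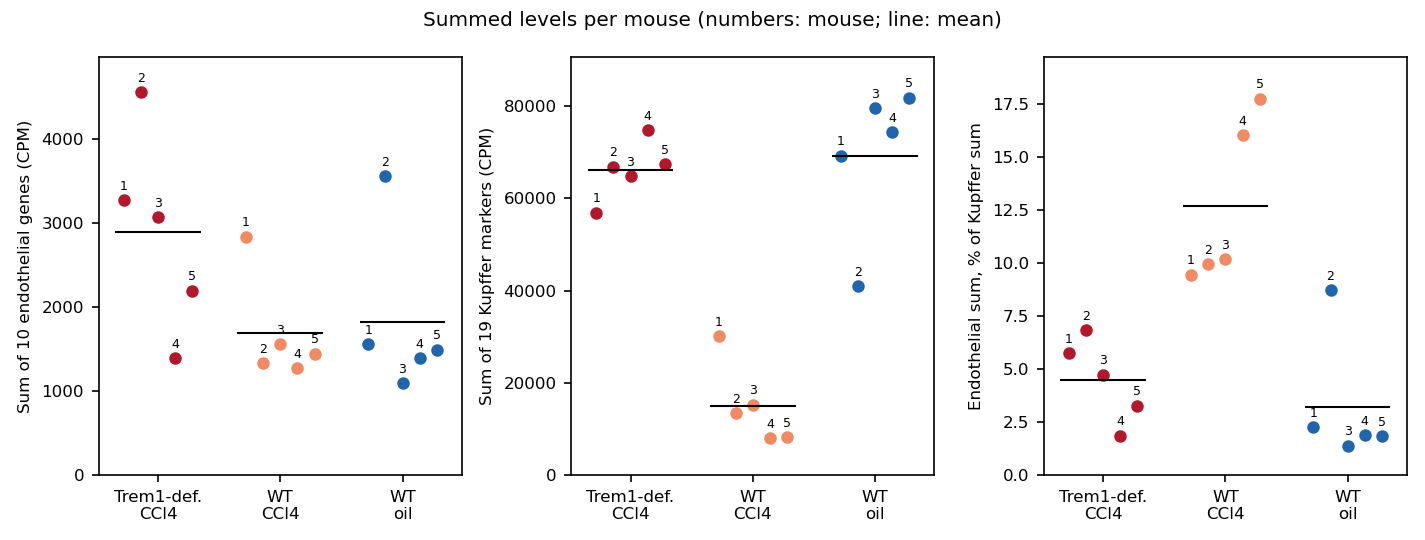
Summed CPM of the 10 endothelial genes, summed CPM of 19 Kupffer cell markers, and the first as a percentage of the second, for each mouse of the 3 groups with the group mean. The percentage is 1.86 to 6.83% in Trem1-deficient, 9.45 to 17.7% in CCl4 wild-type and 1.37 to 8.71% in oil wild-type mice.

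The make-up of the sum was examined as each gene's share of the counts of the 10. Clec4g took 10.4 to 14.6% in Trem1-deficient and 4.08 to 8.29% in oil wild-type mice, which did not overlap. Over the 10 genes and 3 comparisons this was the only case without overlap. In CCl4 wild-type mice Clec4g took 5.74 to 19.98%, which overlapped with both other groups. Cdh5 took 5.21 ± 3.09% in Trem1-deficient, 4.00 ± 3.36% in CCl4 wild-type and 9.60 ± 3.27% in oil wild-type mice (SD, n = 5 each). Stab2 took 11.4 ± 3.55, 8.53 ± 2.79 and 15.2 ± 2.04%. In single libraries 1 gene could dominate. Ptprb made up 42.3% of the 4270 counts of CCl4 wild-type mouse 1 (Wilson 95% interval 40.8 to 43.8%, counting error only), and Kdr 24.4% of the 2845 counts of oil mouse 2 (22.9 to 26.0%).

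Other genes of endothelium were taken from a list of 48, all present in the table, of which 41 passed the filter. Between CCl4 and oil in wild type 3 rose and 2 fell, where 3.04% and 2.09% of all genes did. DESeq2 called 6 of the 41, these 5 and Tspan7, and 1010 of all 9001 genes. Rspo3, which encodes an R-spondin that amplifies Wnt signals, was at 25.3, 12.1, 53.4, 28.05 and 212 CPM after CCl4, while the 5 oil libraries held 1, 2, 1, 1 and 0 counts. Its log2 fold change was 6.06 ± 1.23 (edgeR adjusted p = 0.00244), against oil values below 3 counts. Thbd, the thrombin receptor thrombomodulin, stood at 103, 328, 123, 161 and 562 CPM after CCl4 and 15.0, 2.504, 61.4, 40.3 and 51.6 CPM after oil, without overlap (2.88 ± 0.59, edgeR adjusted p = 0.00282). Fabp4, a fatty acid carrier also made by macrophages, averaged 236 ± 148 CPM after CCl4 and 47.0 ± 53.2 CPM after oil (2.35 ± 0.57, edgeR adjusted p = 0.0119).

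The 2 that fell were Mrc1 and Klf4, both of which macrophages express as well. Mrc1, the mannose receptor, averaged 234 ± 206 CPM after CCl4 and 819 ± 226 CPM after oil in wild type (-1.81 ± 0.39, edgeR adjusted p = 0.00444). The transcription factor Klf4 averaged 594 ± 402 and 1553 ± 297 CPM (-1.38 ± 0.33, edgeR adjusted p = 0.00957). The Kupffer sums given above were lower in the same CCl4 wild-type mice, and their part in these changes was not tested. With index series as a term the log2 fold changes were 5.79 for Rspo3, 2.37 for Thbd, 2.28 for Fabp4, -1.85 for Mrc1 and -1.14 for Klf4, and 0 of the 5 passed, at edgeR adjusted p-values of 0.273 to 0.751.

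Between Trem1-deficient and wild-type mice after CCl4, 0 of the 41 passed, and 8 were higher and 1 lower at an unadjusted edgeR p under 0.05 (6.79% and 8.38% of all genes). The smallest edgeR p-values of the 41 were those of Mrc1 and Klf4, which macrophages express as well. Mrc1 averaged 557 CPM in Trem1-deficient and 234 CPM in CCl4 wild-type mice (1.25 ± 0.38, edgeR adjusted p = 0.0838). Klf4 averaged 1198 and 594 CPM (1.01 ± 0.33, edgeR adjusted p = 0.0985). DESeq2 called 1 of the 41, Ushbp1, and 616 of all 9001 genes. Ushbp1 was at 139, 192, 127, 20.4 and 24.0 CPM in Trem1-deficient and 51.2, 1.01, 28.6, 13.2 and 1.38 CPM in CCl4 wild-type mice (2.38 ± 0.84, edgeR adjusted p = 0.142). Egfl7, which encodes a secreted endothelial protein, averaged 965 ± 596 CPM in Trem1-deficient and 434 ± 183 CPM in CCl4 wild-type mice (1.15 ± 0.43, edgeR adjusted p = 0.185). Adgrl4, an adhesion receptor, was at 228 ± 118 and 99.0 ± 73.8 CPM, and the water channel Aqp1 at 4359 ± 2305 and 1951 ± 639 CPM. The list had 34 positive and 7 negative fold changes, with a median of 0.79.

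Between Trem1-deficient mice after CCl4 and wild-type mice after oil, again 0 of 41 passed, and 6 were higher and 0 lower at an unadjusted edgeR p under 0.05 (2.61% and 2.04% of all genes). DESeq2 called 1 of the 41, Rspo3, and 74 of all 9001 genes. Rspo3 was at 17.7, 24.4, 63.9, 10.6 and 1.17 CPM in Trem1-deficient mice, so that 4 of 5 stood above every oil mouse (4.58 ± 1.17, edgeR adjusted p = 0.118). Without overlap were Thbd, Flt4 and Wnt2, the last named after its values were seen, which averaged 117, 109.9 and 94.6 CPM in Trem1-deficient and 34.2, 33.8 and 28.1 CPM in oil mice. Of all genes 2.9% lay without overlap there, and these 3 did not pass (edgeR adjusted p = 0.432 for Thbd, 0.935 for Flt4 and 0.9998 for Wnt2). Adgrf5, an adhesion receptor, averaged 310.4 ± 137 and 143 ± 50.3 CPM (1.121 ± 0.42, edgeR adjusted p = 0.701).

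Pecam1, Flt1, Stab1, Fcgr2b and Plvap did not pass with edgeR or DESeq2 in any comparison. Pecam1, an adhesion protein of endothelium, averaged 216 ± 119 CPM in Trem1-deficient, 105 ± 96.7 CPM in CCl4 wild-type and 167 ± 91.9 CPM in oil wild-type mice (SD, n = 5 each). The VEGF receptor Flt1 averaged 156 ± 38.0, 107 ± 91.1 and 69.8 ± 42.0 CPM in the same order. Stab1, the partner of Stab2 that macrophages share, averaged 44.4, 24.2 and 15.8 CPM, and the Fc receptor gene Fcgr2b 48.3, 66.2 and 26.4 CPM. Plvap, of the diaphragms of capillary pores, averaged 28.6, 15.7 and 8.60 CPM and was at 0 counts in 1 Trem1-deficient and 3 CCl4 wild-type mice. Tspan7, a membrane tetraspanin, averaged 115, 169.7 and 72.6 CPM, and had a log2 fold change of 1.22 ± 0.45 for CCl4 against oil in wild type (edgeR adjusted p = 0.116, DESeq2 adjusted p = 0.0358). Vwf, Bmp6 and Sox18 were at 0 in all 5 CCl4 wild-type libraries, and Bmp6 in all 5 oil libraries.

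**Figure D4:**
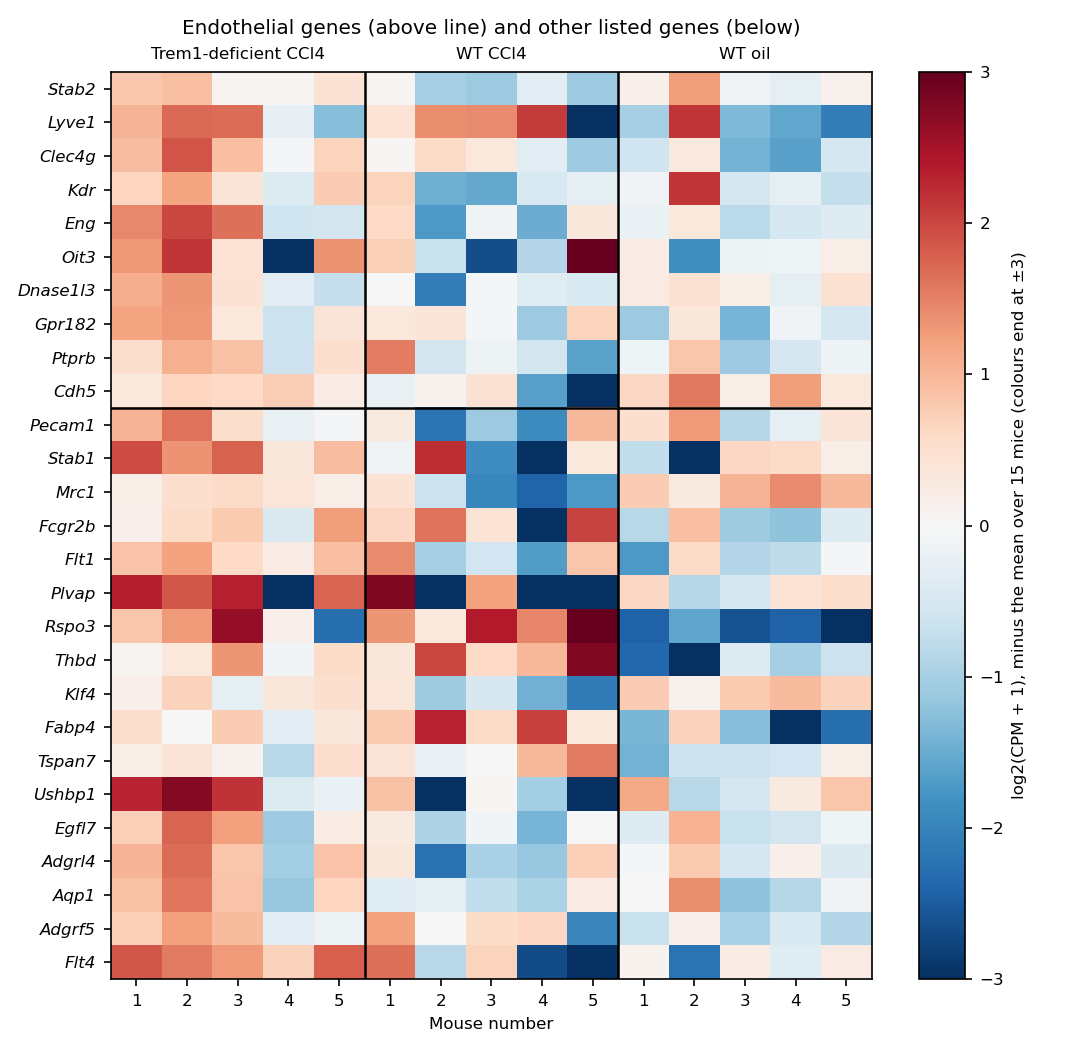
Log2(CPM + 1) of the 10 genes and 17 further endothelial genes (rows) in each mouse (columns), as the difference from the row's mean over all 15 mice, with colours capped at 3 on either side. Trem1-deficient mice 1 to 3 are above the row's mean for 10 of the 10, Trem1-deficient mouse 5 for 7, CCl4 wild-type mouse 1 for 8 and oil mouse 2 for 9, and Rspo3 and Thbd are low in oil mice.

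Within groups the 10 genes varied together only in part. After centring log2 CPM on the group mean, Pearson's r between pairs of the 10 over the 15 mice had a median of 0.39, ran from -0.65 for Oit3 with Cdh5 to 0.86 for Stab2 with Kdr, and was positive for 38 of 45 pairs. Against the mean of the other 9, r was 0.85 for Ptprb and 0.75 for both Stab2 and Clec4g, but 0.37 for Lyve1, 0.19 for Cdh5 and -0.11 for Oit3. Oil mouse 2 was the highest of its group for 9 of the 10, Trem1-deficient mouse 2 for 9, and CCl4 wild-type mouse 1 for 5. The points share libraries, so these values are a description.

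Other genes that averaged at least 10 CPM numbered 7832, and the 8 whose centred levels were most like the mean of the 10 had r of 0.83 to 0.90 over the 15 mice. They were AU021092, Cenpf, Dock2, Trp53i11, Sptbn1, Cbx6, Sparc and Lama4, none of them on the list of other endothelial genes. The median r was 0.55 over 37 genes of that list, which ran from -0.56 to 0.82, against 0.03 over all 7832. It was 0.35 over 6 stellate cell and fibroblast, 0.19 over 4 B cell, 0.16 over 9 neutrophil and 0.13 over 10 monocyte markers. Over 19 Kupffer cell markers it was 0.05, and over 19 hepatocyte markers -0.30.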

How the data were processed

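RNA of Kupffer cell preparations from 15 mice was made into 3' tag libraries (Lexogen QuantSeq) with 4 lanes per mouse, per the labels' protocols. The deposited table holds raw counts of reads per gene, 1 column per mouse, made by the authors. The submitters' processing notes name Trimmomatic, STAR 2.5.1a, Partek 6.6 and mm10 without saying which step each served. The annotation and strand setting of the counting were not given in the sources used here. Reads of a gene and of another that overlaps it on the opposite strand therefore cannot be told apart. Tally rows (4) were kept out. Molecular identifiers are not mentioned, so Wilson intervals and floors describe counting error alone, while intervals of fold changes come from the fit over mice.

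The main test was the robust quasi-likelihood F-test of edgeR 4.0.16 (R 4.3.3, TMM, filterByExpr by group) in 1 fit of all 15 mice with 12 residual degrees of freedom. The Benjamini-Hochberg adjusted p over the 9001 genes tested had to be under 0.05, and values after ± in log2 fold changes are standard errors. The common biological coefficient of variation was 0.888. DESeq2 1.42.0, other scalings, no filter, index series, the replicate number and leaving out mice were alternatives. All pairs of libraries within a group differed by more than sampling noise, with a chi-square per degree of freedom of at least 10.8. The 10 genes and the lists were chosen with earlier results of these data known. The rule for naming genes takes the 10, up to 6 further endothelial genes with the smallest p per comparison, and Stab1, Pecam1, Mrc1, Fcgr2b, Flt1 and Plvap. The code was tested on simulated data. Positions follow GENCODE M21 (GRCm38, which is mm10).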

Additional observations from a re-analysis of the deposited data

Results flagged for a closer look

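Sets of 5 mice, 36 in all, were examined for each of the 10 genes, their sum and the ratio to the Kupffer sum per group. In 8 of them a mouse lay far from the other 4, each time above them. The rule used flags about 1 in 20 sets of independent, normally distributed values. These sets share mice, and the sum and ratio reuse the genes, so the 8 cannot be set against that rate. Oil mouse 2 accounts for 5 of the 8. It stood at 515 CPM of Stab2 against 175 to 236 CPM in the other oil mice, at 224 CPM of Lyve1 against 10.99 to 24.4 CPM, and at 870.1 CPM of Kdr against 118 to 181 CPM. The summed level of the 10 genes was 3562 CPM in that mouse against 1092 to 1558 CPM, and the sum was 8.71% of the Kupffer sum against 1.37 to 2.25%.

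CCl4 wild-type mouse 1 was far above its group for Ptprb, at 1200.0 CPM against 137 to 374 CPM, and for the sum of the 10 genes, at 2839 CPM against 1271 to 1555 CPM. CCl4 wild-type mouse 5 was far above for Oit3, at 261 CPM against 3.82 to 49.2 CPM. What sets these mice apart was not tested.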

How the results depend on the processing

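Which of the 10 genes passed depended on the setting, and how many genes passed in all moved too. With the main fit, library totals, DESeq2 or index series as a term, 9001 genes were tested, and 16587 with no filter. Without oil mouse 2 and CCl4 wild-type mouse 5 they numbered 9692, and within 1 series 8729 against CCl4 wild type and 9773 against oil. For Trem1-deficient against CCl4 wild type, 185 genes changed, against 306 with library totals, 563 with no filter, 616 with DESeq2, 77 with index series as a term, 57 within 1 series and 405 without oil mouse 2 and CCl4 wild-type mouse 5. Of the 10, 2 passed with library totals, 1 with no filter and 1 without those 2 mice (Stab2), and of the other endothelial genes 3, 5 and 4, and 1 with DESeq2. For Trem1-deficient against oil, 21 genes changed, against 73 with no filter, 74 with DESeq2, 11 with the index term and 39 without the 2 mice. Of the 10, 2 passed with no filter (Clec4g and Eng), 1 with DESeq2, 1 within 1 series and 2 without the 2 mice (Lyve1 and Clec4g), and of the other endothelial genes 2, 1, 0 and 1. For CCl4 against oil in wild type, 462 genes changed, against 813 with no filter, 1010 with DESeq2 and 37 with the index term, under which 0 other endothelial genes passed. That term rests on the Trem1-deficient mice alone, the only group in both series. In the comparison of CCl4 with oil 1 of the 10 (Lyve1) passed without the 2 mice.

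Leaving out 1 mouse gave 87 to 508, 12 to 31 and 302 to 759 genes in these comparisons, 0 to 1 of the 10 in each, and 0 to 5, 0 to 0 and 5 to 6 other endothelial genes. The extremes 508 and 759 came without CCl4 wild-type mouse 1. Summed levels ran from 2482 to 3274 CPM in Trem1-deficient, 1402 to 1794 in CCl4 wild-type and 1383 to 2000 CPM in oil mice. Replicate numbers do not pair the mice, which are separate animals (correlations of -0.06 to 0.04), and with the replicate block 158, 21 and 365 genes and 0 of the 10 passed.

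Fold changes that turned sign had not passed the test before or after. For CCl4 against oil these were Eng (-0.13 with library totals, -0.014 with the block), Ptprb (-0.022 with library totals), Dnase1l3 (0.65 with the index term) and Oit3 (-0.53 without the 2 mice). For Trem1-deficient against CCl4 wild type they were Lyve1 (0.11 with library totals, 0.022 with the block), Oit3 (0.24 with library totals, 0.66 with the block, 1.63 without the 2 mice) and Gpr182 (-0.065 with the index term, -0.053 within 1 series). Against oil it was Kdr (-0.028 with DESeq2 size factors, -0.029 with DESeq2). Leaving out 1 mouse also turned Kdr (-1.42 to 0.018), Eng (-0.23 to 0.29), Oit3 (-0.26 to 1.71) and Ptprb (-0.56 to 0.55) for CCl4 against oil, Lyve1 (-0.45 to 0.22) and Oit3 (-0.52 to 1.60) for Trem1-deficient against CCl4 wild type, and Kdr (-0.17 to 1.00) for Trem1-deficient against oil. The causes were not tested. Counted as combinations of gene, comparison and setting for the 10 genes, the direction and the side of the threshold held in 664, and 14 passed only under an alternative. Some of these combinations leave out a mouse of the group not being compared. CCl4 wild-type mouse 5 held 1 count each of Lyve1 and Cdh5, where the relative counting error is large.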
